A study of Mus musculus with 36 samples.

Results

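Acetylation of histone H3 at lysine 27 (H3K27ac) was compared between the hippocampus of mice that received a knockdown vector against Acss2 and an injection of ethanol and that of mice that received a control vector and no ethanol. The 2 groups differ in both factors at the same time, so the comparison measures the joint difference and cannot assign it to either factor. Its members are the peak intervals of the 2 deposited lists on the assembled chromosomes (19 autosomes, X and Y). The list of ethanol-treated knockdown mice holds 119317 peaks and that of untreated control mice 89935, together 209252 of 546933 peaks in the 8 lists of the series. A peak of the knockdown list with no base in common with the control list is called gained, a control peak with no base in common with the knockdown list is called lost, and all others are shared.

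All animals were male mice aged 8 weeks. Untreated control mice carried a control vector, whose construct the labels do not spell out, and had no injection of ethanol; no saline injection is named for them. Ethanol-treated knockdown mice carried AAV2/9 U6.shACSS2.CMV.EGFP, an adeno-associated virus placed in the dorsal hippocampus, and received ethanol into the peritoneum at 2 g/kg as a 20% solution. Its hairpin against Acss2 is transcribed from the U6 promoter, which is active in most cell types, and the CMV promoter drives a green fluorescent marker, so transduced cells of any type can lose the target. The tissue was dissected whole and was not sorted for that marker, so cells without the vector are included. Control mice given ethanol and knockdown mice left untreated complete the design, and their lists serve here for look-up. Each group has 3 replicates, for which the labels name 1 common list, so no value per replicate and no test of a difference could be had. The delay between ethanol and tissue collection is not stated in the sources used here.

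H3K27ac marks active promoters and enhancers and is written by acetyltransferases that use acetyl-CoA, removed by deacetylases and read by bromodomain proteins. ACSS2 makes acetyl-CoA from acetate, and in neurons it is found in the nucleus, where it can supply histone acetylation. The liver oxidises ethanol to acetaldehyde and then to acetate, which reaches the brain through the blood. The design therefore places a source of acetate and a hairpin against an enzyme that uses it in the same animals.

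The lists differed in extent. Peaks covered 57.4 Mb in ethanol-treated knockdown mice, 47.8 Mb in untreated knockdown mice, 40.1 Mb in untreated control mice and 38.1 Mb in ethanol-treated control mice. Median peak scores, the authors' values, were 6.77, 6.89, 6.88 and 6.96 in the same order. The sources used here give no read number for any list, and more reads alone can lengthen a list. The part of depth in the differences below was not tested. All shares carry 95% Wilson intervals where these are printed, which cover counting error only.

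The tissue label was checked against its markers. Of 20 markers of excitatory neurons, 19 had an H3K27ac peak within 1 kb of a gene end in both lists, as did 16 of 20 markers of hippocampal subfields. Of 24 genes of other tissues, 5 had such a peak in untreated control and 7 in ethanol-treated knockdown. Markers of inhibitory neurons had one in 6 and 8 of 20, and ependymal, choroid plexus and neighbouring region markers in 11 and 12 of 20. Both lists thus carried peaks at most markers of excitatory neurons and hippocampal subfields and few at genes of other organs. These markers do not set the hippocampus apart from neighbouring regions. The tissue is a mixture, in which fewer cells of a type and less acetylation per cell cannot be told apart.

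The promoters below belong to genes on which the gene results turn. They were taken from the RefSeq promoter table (GRCm38.p6), run 5′ to 3′ on the gene's own strand, and hold the 250 bases before and 50 bases after a transcription start. The first 4 belong to interferon-induced genes, and capitals mark GAAANNGAAA or its reverse complement, a core bound by interferon regulatory factors, searched on both strands with overlapping matches merged. Ifit1 (chr19:34640639-34640938, plus strand) and Ifitm3 (chr7:141010695-141010994, minus strand) had no covered base near their gene ends in untreated control, while Bst2 (chr8:71537423-71537722, minus strand) and Rsad2 (chr12:26456403-26456702, minus strand) had some.
Ifit1: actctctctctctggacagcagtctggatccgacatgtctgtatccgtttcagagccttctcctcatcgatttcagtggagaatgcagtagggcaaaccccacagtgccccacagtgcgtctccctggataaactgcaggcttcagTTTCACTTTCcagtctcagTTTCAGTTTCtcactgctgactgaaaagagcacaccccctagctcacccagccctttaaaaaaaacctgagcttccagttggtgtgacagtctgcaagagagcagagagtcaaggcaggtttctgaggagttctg
Ifitm3: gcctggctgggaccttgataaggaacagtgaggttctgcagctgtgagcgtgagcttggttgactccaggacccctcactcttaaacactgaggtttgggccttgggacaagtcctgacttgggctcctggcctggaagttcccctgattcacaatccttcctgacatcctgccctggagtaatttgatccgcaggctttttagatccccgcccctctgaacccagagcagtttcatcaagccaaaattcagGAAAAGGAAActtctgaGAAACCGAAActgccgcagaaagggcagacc
Bst2: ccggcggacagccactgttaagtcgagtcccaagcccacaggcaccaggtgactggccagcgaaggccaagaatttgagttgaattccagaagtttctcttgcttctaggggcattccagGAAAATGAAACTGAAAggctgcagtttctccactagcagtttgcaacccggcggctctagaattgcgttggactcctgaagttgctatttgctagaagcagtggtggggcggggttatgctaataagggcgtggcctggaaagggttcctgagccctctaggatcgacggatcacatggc
Rsad2: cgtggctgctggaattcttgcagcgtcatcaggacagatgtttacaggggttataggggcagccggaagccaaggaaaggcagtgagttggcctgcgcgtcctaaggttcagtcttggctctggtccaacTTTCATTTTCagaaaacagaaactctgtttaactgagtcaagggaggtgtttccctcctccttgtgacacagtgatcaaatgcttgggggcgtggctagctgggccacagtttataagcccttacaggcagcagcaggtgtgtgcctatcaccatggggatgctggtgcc
Within these 300 bases, untreated control peaks covered 0, 0, 0 and 48 bases, and ethanol-treated knockdown peaks covered 185, 300, 218 and 300. The intermediate lists covered 0, 8, 76 and 0 bases with ethanol alone, and 0, 0, 68 and 109 with the knockdown alone. These 4 were chosen for their difference. Of the 18 interferon genes with a listed promoter, 10 had more covered promoter bases in ethanol-treated knockdown, 5 had fewer (Ddx58, 300 to 159, Stat2, 177 to 100, Isg15, 25 to 0, Ifit3, 179 to 170, and Irf7, 51 to 49) and 3 had the same number. The motif stood in 3.35% of all 21263 listed mouse promoters of this length and in 12 of the 22 listed promoters of the interferon genes studied here (54.5%).

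The other 4 promoters belong to genes that gained or lost a peak at their start, with each CpG dinucleotide in capitals. Rasef (chr4:73790553-73790852, minus strand), Cacng5 (chr11:107915006-107915305, minus strand) and Tacr1 (chr6:82402225-82402524, plus strand) gained one, and Gdf7 (chr12:8301905-8302204, minus strand) lost one. They differ in CpG content, with 38, 17, 7 and 26 CpG, beside a median of 13 over all listed promoters.
Rasef: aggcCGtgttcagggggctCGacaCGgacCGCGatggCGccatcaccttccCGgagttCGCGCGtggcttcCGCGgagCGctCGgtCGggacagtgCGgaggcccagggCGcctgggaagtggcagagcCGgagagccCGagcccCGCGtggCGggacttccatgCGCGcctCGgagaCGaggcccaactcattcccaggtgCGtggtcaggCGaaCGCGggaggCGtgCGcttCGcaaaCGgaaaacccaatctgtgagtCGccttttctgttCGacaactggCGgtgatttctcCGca
Cacng5: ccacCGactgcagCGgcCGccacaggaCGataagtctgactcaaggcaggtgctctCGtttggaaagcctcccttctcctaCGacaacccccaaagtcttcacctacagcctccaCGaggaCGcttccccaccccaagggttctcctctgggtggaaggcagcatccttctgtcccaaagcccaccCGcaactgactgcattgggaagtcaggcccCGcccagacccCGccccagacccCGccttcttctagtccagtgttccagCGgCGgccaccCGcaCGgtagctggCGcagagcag
Tacr1: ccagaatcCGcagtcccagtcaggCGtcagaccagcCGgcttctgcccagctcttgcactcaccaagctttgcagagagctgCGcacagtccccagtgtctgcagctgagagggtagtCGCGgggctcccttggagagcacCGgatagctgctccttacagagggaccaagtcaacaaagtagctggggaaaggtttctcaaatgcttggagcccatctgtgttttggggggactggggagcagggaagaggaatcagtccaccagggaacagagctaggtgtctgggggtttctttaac
Gdf7: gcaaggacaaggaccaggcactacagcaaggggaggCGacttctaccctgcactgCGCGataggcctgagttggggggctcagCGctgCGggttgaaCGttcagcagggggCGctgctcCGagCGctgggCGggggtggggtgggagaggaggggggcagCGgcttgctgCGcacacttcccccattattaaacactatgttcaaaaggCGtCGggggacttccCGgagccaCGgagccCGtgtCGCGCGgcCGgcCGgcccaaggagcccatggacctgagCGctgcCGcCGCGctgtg
Peaks of ethanol-treated knockdown covered 265, 230, 222 and 0 of these 300 bases, and peaks of untreated control covered 0, 0, 0 and 16. With ethanol alone the covered bases were 0, 254, 0 and 135, and with the knockdown alone 0, 209, 224 and 189. Of these 3 gains, that at Rasef alone was absent from the other 3 H3K27ac lists.

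Most of the gained peaks were narrow, low in score and away from gene ends. Of the ethanol-treated knockdown peaks, 55134 (46.2%, interval 45.9% to 46.5%) were gained and 64183 (53.8%) were shared. Of the untreated control peaks, 17693 (19.7%, interval 19.4% to 19.9%) were lost and 72242 (80.3%) were shared. Covered bases were 43.1% higher and peaks 32.7% more numerous in the knockdown list. The lists had 32.8 Mb in common, 24.6 Mb were covered in ethanol-treated knockdown alone and 7.29 Mb in untreated control alone, a Jaccard index of 0.507. Of the 24.6 Mb, 13.4 Mb lay in gained peaks and 11.2 Mb were added to shared peaks. Shared peaks were thus also broader: 10974 of those in the knockdown list (17.1%) joined at least 2 control peaks, whereas 4993 shared control peaks (6.91%) joined at least 2 knockdown peaks. The gained share was 24.7% when a control peak within 1000 bp counted as shared, and 6.91% among peaks with a score of at least 10 (the lost shares were 6.11% and 0.850%). When the knockdown list was cut to its highest-scoring peaks with as many covered bases as the control list, 18.2% of its peaks were gained and 41.7% of the control peaks lost, so the balance of gains and losses depends on how far down each list reaches.

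Gained peaks had a median width of 206 bp and a median score of 5.27, against 483 bp and 9.98 for shared peaks of the same list. Lost peaks measured 168 bp and scored 4.80, against 329 bp and 7.75 for shared control peaks. Ties in score make deciles unequal. The gained share went from 77.6% in the lowest decile of scores to 0.101% (12 of 11933 peaks) in the highest, and the lost share from 44.7% to 0 of 9000, which allows a share of up to 0.0427% at the upper Wilson bound. Of knockdown peaks narrower than 200 bp, 77.3% were gained, and of those of 1.0 kb or more, 0.470%. The wide, high-scoring peaks were thus nearly all common to both conditions, and most peaks without a counterpart were weak. Both lists end at a score of 3, so a peak near that cut can pass in 1 list and miss it in the other. The shares by score therefore cannot show where acetylation changed. By distance, 25700 gained peaks (46.6%) lay within 1000 bp of a control peak without touching it, as did 12197 lost peaks (68.9%) from a knockdown peak.

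**Figure D1:**
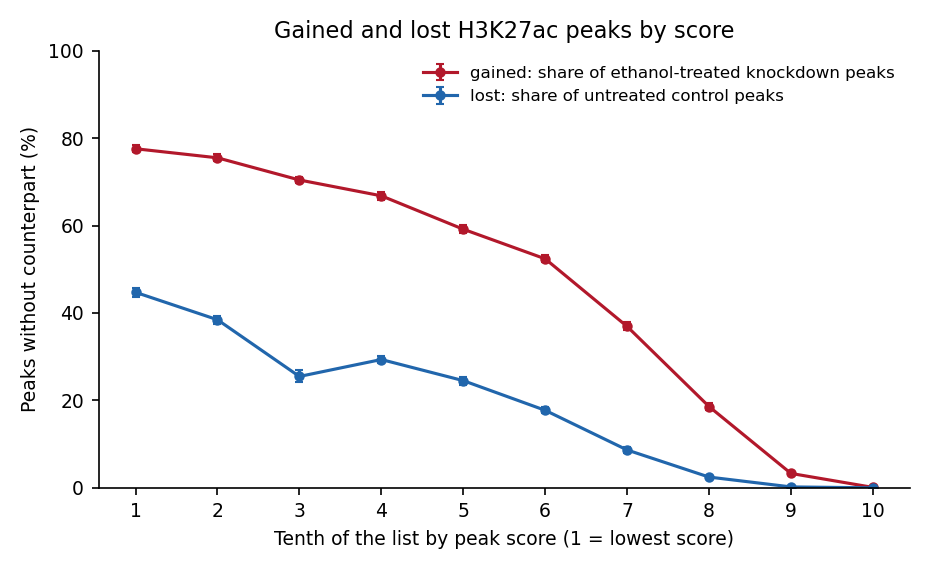
Share of peaks with no counterpart in the other list (vertical axis, percent) by decile of the peak score within each list (horizontal axis, lowest to highest), with 95% Wilson intervals. Gained peaks went from 77.6% in the lowest decile to 0.101% in the highest, and lost peaks from 44.7% to 0.

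By position, 6.83% of gained peaks had their midpoint within 1 kb of a gene end, 67.2% inside a gene and 26.0% outside genes, against 25.8%, 53.9% and 20.2% of the shared peaks. Lost peaks were placed much like gained ones, with 7.04%, 69.4% and 23.5%. Read the other way, 18.5% of knockdown peaks at gene ends were gained, 51.7% of those inside genes and 52.5% of those outside genes, and 6.28%, 23.9% and 22.3% of control peaks at the same places were lost. The excess held on every chromosome. The ratio of covered bases between the conditions ran from 1.39 to 1.46 over the autosomes and was 1.36 on the X chromosome, where 31.3% of knockdown peaks were gained and 9.62% of control peaks lost, both below the 44.2% to 48.1% and 18.6% to 21.8% of the autosomes.

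**Figure D2:**
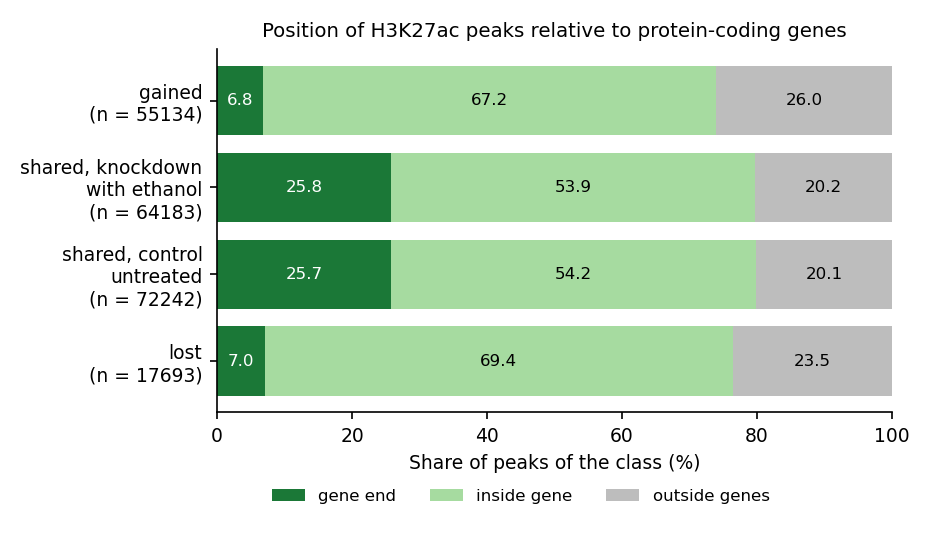
Placement of shared, gained and lost peaks (percent of each class) at gene ends, inside genes and outside genes. Gene ends held 6.83% of gained and 7.04% of lost peaks against 25.8% of shared knockdown peaks and 25.7% of shared control peaks.

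Gained peaks were next looked up in the lists with 1 factor each. Of the 55134, 22.1% were found with ethanol alone, 34.0% with the knockdown alone, 12.8% in both lists and 56.8% in neither. Among the 2382 gained peaks with a score of at least 10, the shares were 52.4%, 69.7% and 41.8%, and 19.7% were found in neither. Shared peaks of the knockdown list were found more often, 77.0% with ethanol alone and 84.9% with the knockdown alone. Of the lost peaks, 24.1% were kept with ethanol alone, 32.1% with the knockdown alone, and 56.2% in neither. Strong gained peaks thus mostly had a counterpart in another list, and more often in that of the untreated knockdown, which is also the longer of the lists searched. All 3 comparisons with untreated control share that list: ethanol alone gave 26238 gained (30.5%) and 31044 lost peaks (34.5%), and the knockdown alone 39192 (38.5%) and 23455 (26.1%).

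H3K9ac, the other promoter mark of the study, seldom lay at the gained peaks. An H3K9ac peak overlapped 4.15% of them in untreated control and 6.01% in ethanol-treated knockdown, against 42.9% and 45.5% of the shared peaks. H3K9ac was present in ethanol-treated knockdown and not in untreated control at 3.87% of gained peaks and showed the opposite at 2.02%. At lost peaks the shares were 3.24% and 2.97%. The 2382 gained peaks with a score of at least 10 had 10.4% and 3.74%. Shared peaks of the knockdown list showed an excess in the same direction, 7.55% against 4.99%, and the H3K9ac list of ethanol-treated knockdown is the longer one (42120 against 38235 peaks). At 92.0% of gained peaks H3K9ac was found in neither condition.

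**Figure D3:**
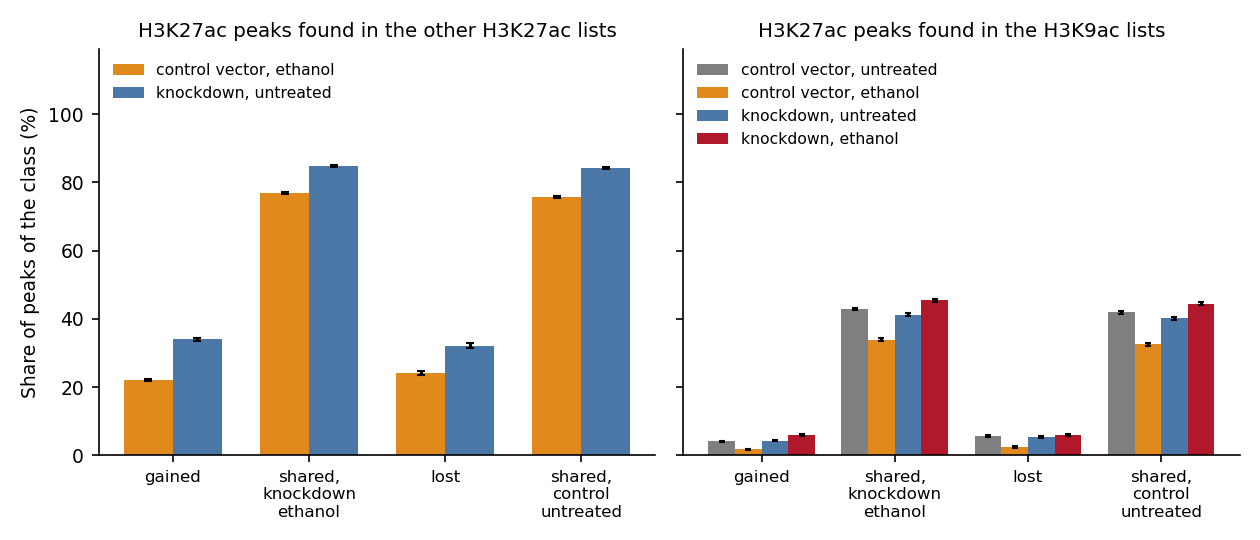
Share (percent, with 95% Wilson intervals) of gained, lost and shared peaks that overlap a peak of the H3K27ac list of ethanol-treated control or untreated knockdown, or of an H3K9ac list. Gained peaks were found at 22.1% with ethanol alone and 34.0% with the knockdown alone, shared knockdown peaks at 77.0% and 84.9%.

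The highest-scoring gained peaks away from gene ends all lay inside genes. That in Tm2d2, a transmembrane protein gene, at chr8:25018793-25019535 had a score of 79.4. It was present with ethanol alone and with the knockdown alone, and the nearest untreated control peak was 853 bp away. H3K9ac covered the same place in all 4 conditions. The next, in Cdk17, a cyclin-dependent kinase gene (chr10:93233123-93233519, score 73.8), was likewise present with ethanol alone and with the knockdown alone, and its nearest control peak was 16487 bp away. Peaks in Ip6k3, an inositol hexakisphosphate kinase (score 47.5), and Cttnbp2, a regulator of dendritic spines (32.9), followed the same pattern. Those in Ank2, which encodes ankyrin-B (41.5), Tusc3 (32.6) and Acot7, an acyl-CoA thioesterase of neurons (31.8), were present with the knockdown alone and not with ethanol alone, and that in Atp2c1, a calcium pump of the Golgi (32.4), with ethanol alone and not with the knockdown alone. The gap at Acot7 was 20 bp, so that case is a peak boundary. None of the 8 was particular to ethanol-treated knockdown, since each was also present in at least 1 list with a single factor.

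Lost peaks away from gene ends scored lower. The highest lay outside genes at chr8:34441367-34441598 (score 23.3) and was kept with the knockdown alone. Peaks in Galk2, a galactokinase family gene (19.2), and Ptbp3, an RNA-binding protein gene (16.6), were found in untreated control alone, as was 1 peak outside genes 160.6 kb from Tle4 (17.7). Those in Sorcs2, a sorting receptor of neurons (17.7), Clip1, a microtubule-binding protein (17.7), and Trpc4ap (17.3), and that near Gm1979 (17.4), were kept in both single-factor lists and missing only where the factors were joined. The nearest ethanol-treated knockdown peak was 8028, 533, 996 and 9851 bp away in that order. At Clip1 and Trpc4ap the loss thus does not hold when a peak within 1000 bp counts as shared.

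Among 21887 protein-coding genes, 758 (3.46%) gained and 132 (0.603%) lost an H3K27ac peak within 1 kb of either gene end, while 13272 had one in both conditions and 7725 in neither. Of the 758 genes, 699 had a highest-scoring peak that itself lacked a counterpart. In the other 59 that peak was a shared one, whose control counterpart lay outside the window. All 12 genes with the highest-scoring peak were of the second kind: Gtf2ird2, Ankrd12, Gckr, Cspg5, 1700017N19Rik, Pcdh9, Gm5373, Cadps2, Mfsd4a, Gal3st2b, Trpm5 and Ccdc85c. In Pcdh9, a protocadherin gene, covered bases near the ends went from 905 to 1082 bp, and in Ccdc85c from 1059 to 2256 bp. Among the 12 lost genes of highest score, Ube4b, Acot4, Tmem79, Snx24, Gm38523 and Ido1 were such cases. Of the 758 gains, 274 (36.1%) were also present with ethanol alone, 390 (51.5%) with the knockdown alone, 202 (26.6%) with each and 296 (39.1%) with neither. Of the 132 losses, 38 were kept with ethanol alone, 52 with the knockdown alone and 63 with neither. H3K9ac gained an end peak too in 88 of the 758 genes and lost one too in 15 of the 132. Over all 21887 genes, H3K9ac gained an end peak in 426 (1.95%) and lost one in 293 (1.34%).

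Genes whose own gained peak scored highest were taken up after their values were seen. Covered bases within 2 kb of the gene ends are given in the order untreated control, ethanol alone, knockdown alone and both. Cacng5, which encodes an auxiliary subunit of AMPA-type glutamate receptors, had 0, 415, 317 and 501 bp. Plekhd1 had 0, 981, 894 and 622 bp, and Vsx1, a homeobox gene, 0, 150, 191 and 365 bp. In these genes the 3 other lists stood together, and untreated control alone lacked the peak. Unc5a, a netrin receptor that guides axons, had 202, 128, 822 and 1698 bp, and Apoc1, an apolipoprotein gene of astrocytes and macrophages, had 28, 182, 1026 and 1331 bp. Both were high in the knockdown lists and low in the control lists. Rasef, a small GTPase gene, had 0, 0, 0 and 584 bp, from a peak at its start (chr4:73790588-73791171, score 16.6) in a CpG-dense promoter. H3K9ac there went from 145 to 0 bp.

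Among genes that lost their own end peak, Sh3tc2, a gene needed for myelination of peripheral nerve, had 1135, 1281, 753 and 0 bp and was the largest decrease near gene ends. It was covered in the other 3 lists. Gdf7, a growth factor of the BMP family, had 230, 271, 516 and 0 bp, and Asic5, an acid-sensing ion channel, 240, 163, 598 and 0 bp. Slc6a4, the serotonin transporter, had 160, 263, 607 and 95 bp, and Tcf25 had 285, 0, 360 and 0 bp. Apart from Sh3tc2, each of these genes had at most 285 bp in untreated control, so the losses are small.

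Counted by covered bases, 3044 genes (13.9%) had at least 500 bp more near their ends in ethanol-treated knockdown, and 57 (0.26%) had at least 500 bp less. Coverage was higher by any amount in 11928 genes (54.5%), lower in 2806 (12.8%) and at 0 in both conditions in 7143 (32.6%). The mean gene had 954 bp in untreated control, 935 with ethanol alone, 1035 with the knockdown alone and 1139 with both, and the ratio of both to untreated control was 1.19. These shares over all genes are the background for every list below. At equal covered bases the ratio over all genes was 1.06, and that of the ethanol metabolism (0.976), glucocorticoid (0.979), cholesterol (0.993), inhibitory neuron (0.913), microglia (0.955) and oligodendrocyte lists (0.651) was below 1. With the knockdown list cut to equal covered bases, 1286 genes were higher and 509 lower by 500 bp, and at equal list lengths 2264 and 140. The count depends on how covered a gene is: of genes with a mean of 1000 to 2000 covered bp over the 4 lists 16.8% were at least 500 bp higher, with a median change of 190 bp, of those with 2000 to 3000 bp 31.5%, with 308 bp, and of those above 3000 bp 54.2%, with 546 bp. H3K9ac moved less, with a ratio of 1.03, 706 genes (3.23%) higher and 357 (1.63%) lower by 500 bp.

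The largest increase near gene ends was in Ajm1, an apical junction gene, with 3848, 4579, 5523 and 6540 bp in the order given above. Pdlim7, a PDZ and LIM domain gene, had 2338, 2114, 3454 and 4857 bp, and Arvcf, a catenin of cell junctions, 2870, 3320, 3052 and 5127 bp. Stra6, Ptov1, Fam163b, Dnal4 and Mybph were also among the 10 largest, with differences between 2262 and 2493 bp. Each of these 8 genes had more covered bases in untreated knockdown than in untreated control and was highest with both factors joined. The mean gene followed the same order. After Sh3tc2, the largest decreases were in Sox10, the regulator of the oligodendrocyte lineage (3059, 4209, 2336 and 2085 bp), and Pitx3, a transcription factor of dopamine neurons (2300, 2341, 1167 and 1351 bp). Both were low in the knockdown lists and high in the control lists. Chga, which encodes a protein of secretory granules, had 1314, 712, 1132 and 627 bp and was low in the ethanol lists. The differences in Gtf2f2, Ccdc9, Gm40365 and Gm36327 lay between -754 and -685 bp.

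Acss2 itself (chr2:155518043-155562743, plus strand) had 1389 bp in untreated control and 1634 in ethanol-treated knockdown, with 1619 and 1614 bp in the single-factor lists. H3K9ac there went from 1582 to 1156 bp. A hairpin acts on the transcript, so peaks at the gene cannot show whether the knockdown worked. The 22 genes of ethanol and acetate metabolism moved little: none passed 500 bp in either direction, 12 were higher and 6 lower at all, and the ratio of their summed covered bases was 1.09 against 1.19 over all genes. Aldh2, the mitochondrial enzyme that oxidises acetaldehyde, went from 2002 to 1526 bp, the lowest change of the list. Adh7 (0 to 165 bp), Aldh1a1 (0 to 253 bp) and Acss3 (0 to 287 bp), which encode an alcohol dehydrogenase, a retinaldehyde dehydrogenase and a mitochondrial acyl-CoA synthetase, gained a small end peak.

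Of 26 writers, erasers and readers of histone acetylation, 12 were at least 500 bp higher and none lower, with a median change of 382 bp and a ratio of 1.28. These genes, 3 of which were at 0 in both conditions, averaged 1689 bp over the 4 lists. The values for genes of 1000 to 2000 bp (16.8% higher, median 190 bp) stand nearest beside that mean. The share was 31.5% in genes of 2000 to 3000 bp and 54.2% above 3000 bp. At equal covered bases 6 of the 26 were higher and 1 lower by 500 bp, and the ratio was 1.15 against 1.06 over all genes. Hdac5, a deacetylase that shuttles out of the nucleus with neuronal activity, had 2376, 2502, 3511 and 4149 bp. Kat2a, the acetyltransferase GCN5, had 1419, 2142, 2375 and 2777 bp, and Hdac1, a nuclear deacetylase, 2022, 1993, 2385 and 2803 bp. Each was highest with both factors joined, as was the mean gene. H3K9ac at Hdac5 was 2217 bp in untreated control and 2216 bp in ethanol-treated knockdown.

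The interferon and antiviral genes had a ratio of 1.72, against 1.12 with ethanol alone and 1.48 with the knockdown alone. It was the highest of the 26 lists near gene ends but not in every setting. Endothelial markers had 1.84 against 1.67 at a score of at least 10. Within 5 kb of gene ends they had 1.65 against 1.62, and over whole genes 2.00 against 1.74. Antigen presentation genes had 1.75 at a score of at least 10. Genes of other tissues, a contrast list, had 1.72 within 5 kb of gene ends. Of the 21 interferon genes measured, 8 were at least 500 bp higher and none lower. Ifit1, an inhibitor of viral translation, had 0, 0, 0 and 546 bp, and Oas1a, a sensor of double-stranded RNA, 0, 0, 0 and 254 bp. Ifitm3, which blocks virus entry, had 0, 285, 448 and 848 bp, and Oasl2 had 0, 315, 570 and 526 bp. Bst2, which tethers budding virus, had 293, 685, 878 and 1614 bp, Irf7, the amplifier of the interferon response, 384, 516, 906 and 1278 bp, and Ddx58, the RNA sensor RIG-I, 651, 912, 1010 and 1460 bp. At Ifitm3, Bst2, Irf7 and Ddx58 the values stood in the same order, lowest in untreated control and highest with both factors. The mean gene was also highest with both factors, but lowest with ethanol alone. The list was not uniform: Oas2 lost its only covered bases (177, 0, 275 and 0 bp), Isg15 lost an end peak with 825 bp before and 758 bp after, and Stat2, a signal transducer of the interferon receptor, had 891, 729, 799 and 707 bp. H3K9ac went from 0 to 254 bp at Ifit1, from 0 to 292 bp at Oasl2 and from 582 to 225 bp at Bst2.

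Ratios were higher where coverage was low. Genes with a mean of at most 250 covered bp over the 4 lists had a ratio of 3.17, those between 250 and 500 bp 1.86, those between 500 and 1000 bp 1.29, and all bins above 1000 bp between 1.16 and 1.17. The interferon genes averaged 743 bp over the 4 lists and 559 bp in untreated control, and the part of low coverage in their ratio was not tested. Their ratio was 1.27 to 1.44 times that of all genes here and in each of 6 alternative settings.

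**Figure D4:**
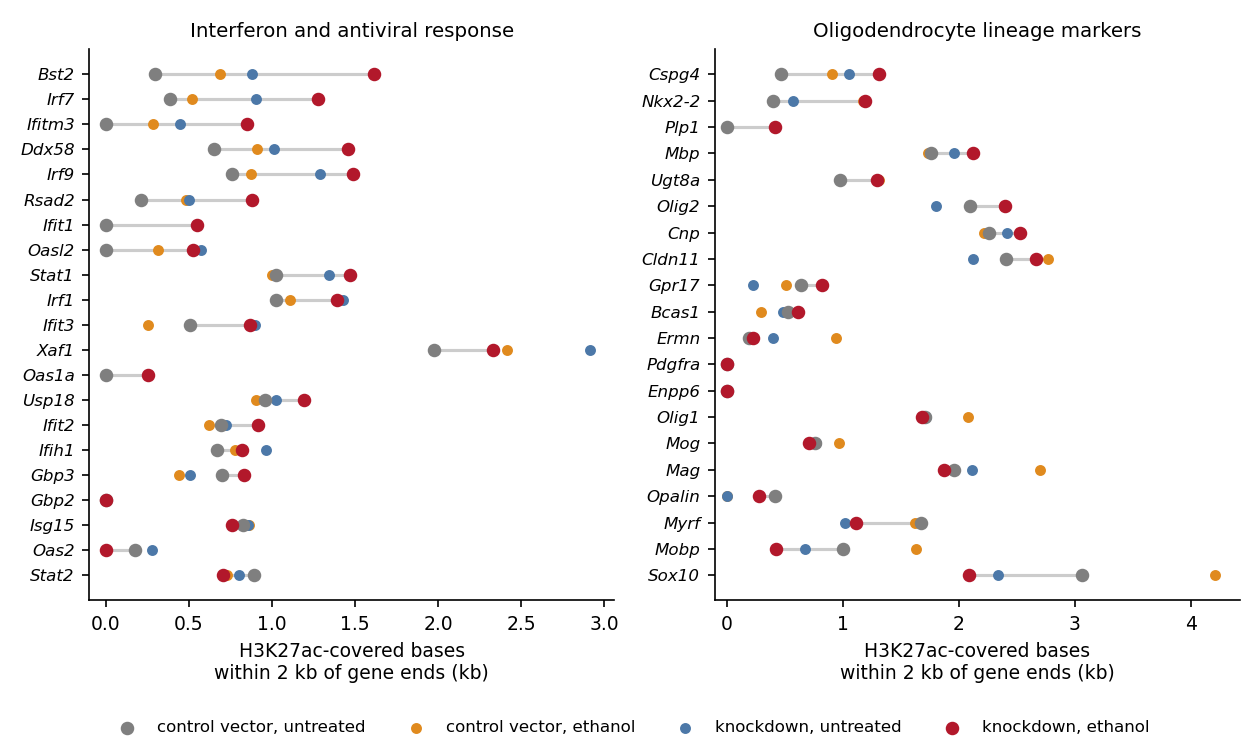
H3K27ac-covered bases (kb) within 2 kb of the gene ends for each interferon and antiviral gene (left) and each oligodendrocyte lineage marker (right) in the 4 H3K27ac lists, 1 point per list and no error because each list stands for a whole group. Bst2 went from 293 to 1614 bp and Sox10 from 3059 to 2085 bp between untreated control and ethanol-treated knockdown.

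Genes of antigen presentation and complement had a ratio of 1.47, with 4 of 24 at least 500 bp higher and none lower. Genes of other tissues, chosen as a contrast, had about the same ratio, 1.46, with 2 of 24 higher, none lower and 16 at 0 in both, so a ratio of this size was not particular to the antigen-presentation list. H2-Q4, a class I antigen-presenting gene, had 0, 569, 596 and 718 bp, and Tap1, the peptide transporter, 1850, 2140, 2713 and 2844 bp. H2-Q4 has close relatives in the same gene cluster, so reads may be shared among copies. Ciita, the regulator of class II genes, lost its only covered bases (195 to 0 bp). Of 20 markers of microglia and macrophages, 0 were at least 500 bp higher and 10 were at 0 in both conditions. Their ratio was 1.12, but 1.40 at a score of at least 10 and 1.36 within 5 kb of gene ends, above the 1.20 and 1.25 of all genes there. Csf1r (537, 216, 293 and 0 bp) and P2ry12 (149, 158, 170 and 0 bp) lost their end peak. Markers of endothelial and mural cells had a ratio of 1.55, with 3 of 20 higher by 500 bp, none lower and 9 at 0 in both. At equal covered bases 1 was higher and 1 lower by 500 bp, and the ratio was 1.10 against 1.06 over all genes. These markers averaged 499 bp over the 4 lists, and all genes between 250 and 500 bp had a ratio of 1.86. Cldn5, a tight junction protein of brain vessels, had 0, 547, 741 and 680 bp, and Esam, an adhesion molecule of endothelium, 230, 0, 1276 and 1514 bp. The part of microglia and of vessel cells in the interferon and antigen-presentation values was not tested.

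Of 20 astrocyte markers, 9 were at least 500 bp higher and none lower, with a median change of 461.5 bp and a ratio of 1.40 (0.902 with ethanol alone and 1.10 with the knockdown alone). At equal covered bases 2 astrocyte markers were 500 bp higher and 1 lower, and the ratio was 1.01 against 1.06 over all genes. Gfap, the intermediate filament of astrocytes, had 1336, 2278, 2344 and 3032 bp, S100b had 805, 384, 1090 and 1787 bp, and Sox9 had 1541, 1066, 1372 and 2505 bp. S100b and Sox9 were lowest with ethanol alone and highest with both factors, as was the mean gene. Oligodendrocyte lineage markers had the lowest ratio of the 26 lists, 1.07, which was 0.984 with peaks of score 10 or more and 0.910 at equal list lengths, with 2 of 20 at least 500 bp higher and 3 lower. By any amount 11 were higher and 7 lower, with a median change of 60 bp. The markers averaged 1181 bp over the 4 lists, and genes of 1000 to 2000 bp had a median change of 190 bp. Over all genes, of which 32.6% were at 0 in both conditions, the median change was 52 bp. Mobp, a myelin protein gene, had 1000, 1635, 678 and 422 bp, and Myrf, the regulator of myelin genes, had 1671, 1620, 1017 and 1113 bp. With Sox10, described above, these were lower in both knockdown lists than in both control lists. Cspg4 and Nkx2-2, which mark precursors of the lineage, were higher, with 466, 909, 1058 and 1317 bp and with 400, 1179, 576 and 1195 bp. H3K9ac covered bases over the same 20 genes had a ratio of 0.789, against 1.03 for all genes.

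Ependymal, choroid plexus and neighbouring region markers had a ratio of 1.51, with 8 of 20 higher by 500 bp and none lower. At equal covered bases 3 were higher and 2 lower by 500 bp, and the ratio was 1.03 against 1.06 over all genes. Foxj1, the regulator of motile cilia, had 4662, 4882, 4256 and 5531 bp, and Ppp1r1b, which encodes the striatal phosphoprotein DARPP-32, had 3265, 3259, 3276 and 4965 bp. Lhx9, a homeobox gene of the thalamus, had 438, 161, 508 and 1385 bp. In these genes untreated knockdown stood nearer to untreated control than did ethanol-treated knockdown. Differences in dissection between groups were not tested and cannot be told apart from the conditions.

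**Figure D5:**
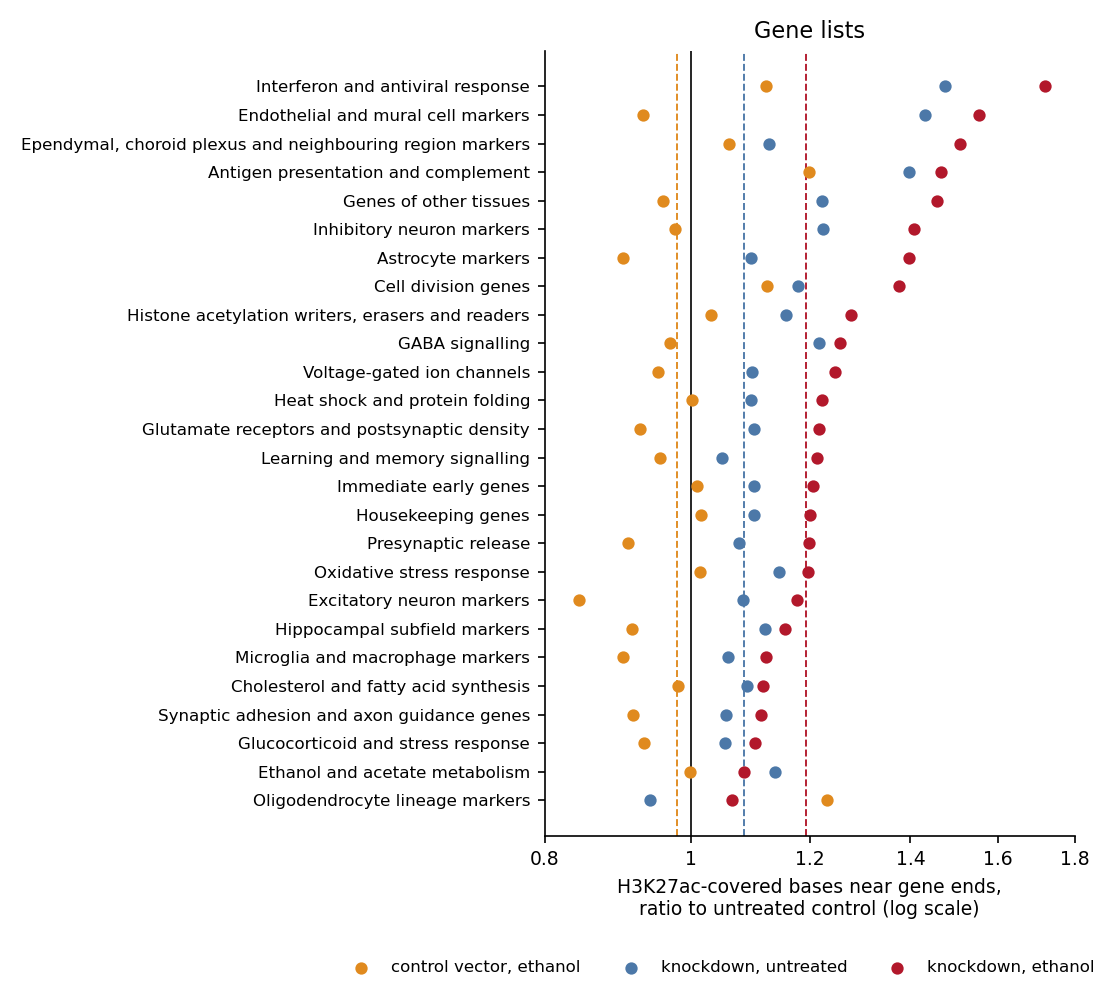
Ratio of summed H3K27ac-covered bases within 2 kb of gene ends to untreated control (log axis) for 26 gene lists in the other 3 conditions, with dashed lines at the ratio over all protein-coding genes (0.980, 1.08 and 1.19). With both factors joined, ratios ran from 1.07 for oligodendrocyte lineage markers to 1.72 for interferon and antiviral genes.

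Near gene ends, most neuronal lists stood close to the ratio over all genes. Excitatory neuron markers had 11 of 20 genes at least 500 bp higher and a ratio of 1.18, against 0.843 with ethanol alone. Camk2a, the calcium-dependent kinase of excitatory synapses, had 3495, 2985, 3986 and 4600 bp, and Emx1, a cortical transcription factor, 2266, 1973, 2416 and 3545 bp. Both were lowest with ethanol alone, as was the mean gene. Glutamate receptor and postsynaptic genes had 9 of 26 higher and a ratio of 1.22, presynaptic genes 9 of 29 and 1.20, and GABA signalling 5 of 21 and 1.26, with no member lower by 500 bp in any of them. Grin1, the obligatory NMDA receptor subunit, had 4663, 3962, 4760 and 6025 bp. Inhibitory neuron markers, 8 of which were at 0 in both lists, had a ratio of 1.41, with 1 of 20 at least 500 bp higher. That gene was Gad1, the main GABA-synthesising enzyme, with 1106, 866, 1818 and 1822 bp. The markers averaged 319 bp over the 4 lists, and all genes between 250 and 500 bp had a ratio of 1.86. Dlx5 and Dlx6, regulators of interneuron fate, gained an end peak (0 to 155 bp and 0 to 479 bp), and Reln lost one (128 to 0 bp).

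All 24 immediate early genes, which neurons switch on within minutes of activity, had more covered bases with both factors joined, and 12 were at least 500 bp higher. Coverage was higher by any amount in 54.5% of all genes, but 32.6% of all genes were at 0 in both conditions and could not differ. None of the 24 immediate early genes was at 0 in both, so the 54.5% is not a matched background for them. At equal covered bases 18 of the 24 were higher and 6 lower, and 5 were at least 500 bp higher. In the full lists their median change was 494.5 bp and their ratio 1.21. They averaged 2737 bp over the 4 lists, where 31.5% of all genes were as much higher with a median of 308 bp, against 54.2% and 546 bp above 3000 bp, and their ratio was close to the 1.19 of all genes. Btg2 had 2707, 2860, 3414 and 3963 bp, and Nr4a1, an orphan nuclear receptor induced by activity, 1409, 1861, 1503 and 2391 bp. Genes of learning and memory signalling had 7 of 22 higher, including Camk2b (3095, 2897, 4474 and 5034 bp), and 20 housekeeping genes had 7 higher and a ratio of 1.20. Actb, the β-actin gene of the housekeeping list, went from 3278 to 5313 bp.

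Ratios of the stress and metabolic lists lay between 1.10 and 1.22. Glucocorticoid and stress genes had 3 of 20 higher and a ratio of 1.10, with Per1, a clock gene that glucocorticoids induce, at 2610, 2656, 2704 and 3493 bp. Crh, the corticotropin-releasing hormone, had 0, 167, 213 and 444 bp, and Avpr1a, a vasopressin receptor, 0, 0, 614 and 373 bp, both as gained end peaks. Heat shock genes had 5 of 20 higher and a ratio of 1.22, with Hspa1a at 1113, 1701, 1654 and 2338 bp. Cholesterol and fatty acid synthesis had 5 of 22 and 1.12, with Fdps, an enzyme of isoprenoid synthesis, at 2618, 3096, 2908 and 3570 bp. Oxidative stress genes had 5 of 20 and 1.20, with Nqo1 at 814, 875, 1187 and 1803 bp. Voltage-gated ion channels had 3 of 24 higher and 1.25, synaptic adhesion genes 1 of 24 and 1.11, hippocampal subfield markers 2 of 20 and 1.16, and cell division genes 1 of 20 and 1.38. In none of these lists was a member at least 500 bp lower.

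Over whole genes with 2 kb on each side, the ratio between the conditions was 1.37, above that of 1.19 near gene ends. It was higher in longer genes, from 1.23 in genes up to 10 kb to 1.58 in those above 300 kb, while the ratio near the ends stayed between 1.16 and 1.21. Over whole genes, glutamate receptor and postsynaptic genes had 1.64, presynaptic genes 1.60 and voltage-gated ion channels 1.59. GABA signalling had 1.53 and excitatory neuron markers 1.49, beside 1.49 in all genes of 100 to 300 kb. The part of gene length in the ratios of these lists was not tested. At least 5 kb more was covered in 537 genes, and no gene had 5 kb less. Rbfox3, which encodes the neuronal nuclear protein NeuN (chr11:118489760-118911597), had 48.1, 36.8, 62.5 and 86.2 kb in 128, 113, 140 and 205 peaks. Kalrn, a builder of dendritic spines, had 46.6, 28.1, 56.4 and 76.7 kb, and Zbtb20, a regulator of CA1 identity, 53.2, 39.7, 65.0 and 82.2 kb. In these genes coverage was lowest with ethanol alone and highest with both factors, which is also the order of the lists as a whole. Gse1, Msra, Prkce, St6galnac3, Sipa1l3, Btbd9 and Tcf4 were the others of the 10 largest increases. Gse1 had 222 peaks in untreated control and 232 in ethanol-treated knockdown for 134 and 171 kb, so the peaks were wider rather than more numerous by that much. Among the largest falls, Fa2h, an enzyme of myelin lipids, had 5.50, 7.51, 2.71 and 4.43 kb, and Elmo1, a regulator of engulfment and migration, 9.13, 8.34, 8.50 and 7.22 kb.

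In windows of 100 kb, 89.0% of the 14558 windows with a peak had more covered bases in ethanol-treated knockdown and 10.9% had fewer, with a median change of 539 bp. The largest rise lay at chr7:29300001-29400000 over Sipa1l3 and Dpf1, with 23893, 19566, 34077 and 42752 bp. Windows over Kcnab2 with Nphp4, Zbtb20, Rbfox3, and Syt7 with its neighbours were also among the 6 largest. The largest fall was at chr9:3000001-3100000, which holds no protein-coding gene, with 4203, 9788, 272 and 0 bp, while H3K9ac there covered 22723 bp in untreated control and 18142 bp in ethanol-treated knockdown. That window is the first of its chromosome assembly to hold sequence and is rich in satellite repeats, where reads have no single place. The next fall, at chr6:47700001-47800000 over Gm40363 and Pdia4, was from 20536 to 16768 bp.

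Promoters with a gained peak were poorer in CpG than those with a peak in both conditions. The median was 7 CpG per 300 bases at 663 starts with a gained peak and 6 at 115 starts with a lost one, against 21 at 13200 starts with a peak in both and 3 at 7285 with neither. GC content followed, with medians of 55.7%, 53.0%, 61.7% and 46.3%. The motif GAAANNGAAA stood in 4.98% of promoters with a gained peak, 6.96% with a lost peak, 2.62% with a peak in both and 4.47% with neither. The cyclic AMP response element TGACGTCA stood in 1.21% of those with a gained peak and 3.17% of those with a peak in both, beside 2.23% of all and 0 of the 115 with a lost peak. Gained and lost promoters both stood between the other 2 classes in median CpG and GC content.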

How the data were processed

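Chromatin immunoprecipitation with sequencing was done by the authors for H3K9ac, H3K27ac and input in 36 samples, 3 per group. Groups were taken from the labels. The authors deposited 1 peak list per mark and condition, called against input at a false discovery rate of 0.001 per the labels. Tools in the submitters' processing notes are STAR 2.5.2a, MACS2, bcl2fastq and bedtools, listed with no role, and the build is GRCm38 (mm10). Whether and how replicates were pooled is not stated in the sources used here. The deposited score is read as −log10 of a q-value, since none was below 3. It served to rank and filter peaks inside each list, and alternatives with a minimum score apply it as a common value. Peak starts and ends are the deposited coordinates.

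Peaks were compared by an overlap of 1 base in Python 3.11.15 with pandas 2.3.3, and the overlap code was checked against bedtools 2.31.1 and tested on simulated data. RefSeq gene and promoter tables of the same build gave 21887 protein-coding genes. A gene has an end peak where a peak lies within 1000 bp of either gene end, and covered bases are bases inside peaks within 2000 bp of the ends, with 500 bp as the least change called. Peaks off the assembled chromosomes (169 and 163) were left out. With 1 list per group no test was run.

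The 26 gene lists (571 entries for 554 genes, so some genes stand in more than 1 list) and all members were chosen with earlier results of these data known. Of the interferon list, Mx1 and Mx2 matched no gene. Named are Acss2, list members with a gained or lost end peak or one of the 4 largest changes past 500 bp, the 12 highest-scoring gained and lost end peaks, the 10 largest rises and falls, the 8 highest-scoring gained and lost peaks away from gene ends, and the 6 windows of 100 kb with the largest rise and fall. Where a list has many such members, examples are printed. Some genes that the rule names are not reported here. Genes with an own gained or lost peak, whole-gene extremes, Aldh2 and Stat2 were named after their values were seen. The promoters shown were picked from named genes, with Rsad2 and Tacr1 picked after their values were seen.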

Additional observations from a re-analysis of the deposited data

How the results depend on the processing

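The gained share was 58.6% when 50% of a peak's own bases had to be covered, 49.4% with fixed 300 bp windows, 43.9% at a score of at least 5 and 35.4% at a score of at least 10 in both lists, 36.4% at equal list lengths, 24.7% when a peak within 1000 bp counted as shared, and 6.91% for peaks of score 10 or more against all control peaks. The lost share under the same settings was 27.1%, 31.7%, 19.5%, 10.0%, 26.5%, 6.11% and 0.850%. Covered bases were 40.8% higher at a score of at least 5, 41.7% at a score of at least 10, 26.5% at equal list lengths and 32.8% with fixed windows. Genes with a lost end peak numbered 233 at equal list lengths. Around listed transcription starts, a setting chosen after seeing the data, 501 genes gained and 87 lost a peak. Also chosen after seeing the data, the knockdown list was cut to its 52493 highest-scoring peaks, which cover as many bases as the control list. Gained peaks were then 18.2% and lost peaks 41.7%, so the excess of gains over losses reversed when only strong knockdown peaks were set against all control peaks. At equal covered bases the ratio near gene ends was 1.06 over all genes and fell below 1 for ethanol and acetate metabolism (0.976), glucocorticoid and stress response (0.979), cholesterol and fatty acid synthesis (0.993), inhibitory neuron markers (0.913), microglia and macrophage markers (0.955) and oligodendrocyte markers (0.651). For oligodendrocyte markers it was also below 1 at a score of at least 10 (0.984) and at equal list lengths (0.910). The other 154 alternative values for gene lists and all genes kept their direction, and the interferon ratio was then between 1.40 and 1.74. No paired analysis was possible because each group has 1 list without replicate numbers, and for the same reason no replicate could be left out. Reads per list and the spread between mice are unknown, so no difference here can be set against replicate error.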
